A study of Mus musculus with 4 samples.

Results

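The genes described here store, move and recycle iron: Ftl1, Fth1, Slc40a1, Hmox1, Tfrc, Slc11a1, Cd163 and Blvrb. They were taken by symbol from the feature table of a single-cell RNA-seq matrix of mouse lung tumors and make up 8 of its 31055 features. Each symbol matched 1 feature. Their unique molecular identifiers (UMIs, the tags that count captured RNA molecules) were summed per cell class and compared among macrophages, neutrophils and epithelial cells. None of the 8 genes was used to define a class.

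The tumors came from 4 female mice of 2 cohorts. All 4 carried Lkb1XTR/XTR, which Cre inactivates and the recombinase FLPo-ERT2 can restore, and Rosa26LSL-tdTomato, a reporter of Cre activity. The 2 Restored mice also had FLPo-ERT2 at Rosa26, and the 2 Non-Restored mice did not. Cre was delivered to the airways by lentivirus, so any cell that took up virus can carry the recombined alleles. Tumors grew for 16 weeks, and both cohorts received tamoxifen, in doses of 4 mg, for the last 2 weeks. Viable cells of microdissected tumors were sorted by exclusion of a dead-cell dye after red blood cell lysis, with no antibody selection.

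The deposited counts form 1 matrix of 20351 cells and 58624795 UMIs with no map from cells to mice, and it counts as 1 sample. Restored and Non-Restored tumors were therefore not compared, no test was run, and each interval below is an exact 95% interval that covers counting error only. Unequal shares of the 4 mice in a class cannot be told apart from a difference between classes. After filters on genes and mitochondrial share, 19488 cells remained, and 17 classes of at least 50 cells were set by marker genes, with 3153 cells (16.2%) left unassigned. The classes at the center of the comparison held 1401 alveolar macrophage-like, 1603 C1q macrophage-like, 1757 neutrophil-like and 923 epithelial-like cells. Their median depths were 5572, 4011, 896 and 3728 UMIs per cell. Mitochondrial genes took a mean of 0.906% of UMIs in neutrophil-like cells and between 4.20% and 5.77% in the other 3 classes. Markers kept out of the gate were highest in their own class: Chil3, Lpl and Mrc1 in alveolar macrophage-like cells, Apoe and Cx3cr1 in C1q macrophage-like cells, Mxd1, Hcar2 and Trem1 in neutrophil-like cells, and Sftpc, Lamp3 and TdTomato in epithelial-like cells. Trem2 was the exception, at 212 CPM (the UMIs of a gene as a share of all UMIs of a class, scaled to counts per 1000000) in C1q macrophage-like and 215 CPM in alveolar macrophage-like cells. The non-classical monocyte-like class also held alveolar macrophage RNA (Chil3 at 11013 CPM), and the part of that RNA in its iron gene levels was not tested.

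Iron enters most cells bound to transferrin through the transferrin receptor Tfrc and is stored in a hollow protein shell, ferritin, built of light (Ftl1) and heavy (Fth1) chains. Slc40a1 (ferroportin) is the known exporter of iron from cells, and Slc11a1 (Nramp1) moves metal ions out of the phagosome of phagocytes. Macrophages also recover iron from hemoglobin: Cd163 takes up hemoglobin bound to haptoglobin, Hmox1 opens the heme ring to release iron and biliverdin, and Blvrb is a reductase of biliverdin and flavins. When iron is scarce, iron regulatory proteins bind hairpins called iron-responsive elements, which blocks translation when the hairpin lies in the 5′ untranslated region (UTR) and stabilizes the mRNA when hairpins lie in the 3′ UTR.

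The hairpins of the ferritin genes Fth1 and Ftl1 and of the uptake gene Tfrc are shown here. Matches in Slc40a1, Hmox1, Slc11a1, Cd163 and Blvrb were not recorded, so their absence from the lines below is not a result. A UMI count measures mRNA and not its translation. A pattern of a C, 5 bases, the loop CAGTGN and 5 bases that pair with the first 5 (G with T pairs allowed) was searched on the transcript strand of the UTRs of protein-coding genes in GENCODE vM21, on mm10. The lines below run 5′ to 3′ with 5 flanking bases on each side, and capitals mark the loop.
Fth1, 5′ UTR, chr19:9982733-9982759, plus strand: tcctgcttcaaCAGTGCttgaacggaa
Ftl1, 5′ UTR, chr7:45459780-45459806, minus strand: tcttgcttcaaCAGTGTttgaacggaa
Tfrc, 3′ UTR, chr16:32631220-32631246, plus strand: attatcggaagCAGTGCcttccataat
Tfrc, 3′ UTR, chr16:32631599-32631625, plus strand: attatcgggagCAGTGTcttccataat
Tfrc, 3′ UTR, chr16:32631664-32631690, plus strand: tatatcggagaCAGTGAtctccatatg
Tfrc, 3′ UTR, chr16:32631711-32631737, plus strand: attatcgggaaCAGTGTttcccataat
The pattern was in a 5′ UTR of 31 of 21877 protein-coding genes (0.142%) and in a 3′ UTR of 129 (0.59%). Fth1 and Ftl1 each held 1 match in the 5′ UTR and none in the 3′ UTR, and Tfrc held 4 in the 3′ UTR and none in the 5′ UTR. A match is a description of the sequence and was not set against any measured level.

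Ferritin heavy chain mRNA was the most abundant of the 8 genes in total, with 637098 UMIs in 19133 of the deposited cells, and ranked at number 5 of all features. Fth1 (chr19:9980598-9985098) stood at 28638 CPM (28519 to 28757) in alveolar macrophage-like cells, 12195 (12111 to 12279) in C1q macrophage-like cells, 14323 (14163 to 14484) in neutrophil-like cells and 2717 (2664 to 2770) in epithelial-like cells. Alveolar macrophage-like cells were thus 2.35-fold above C1q macrophage-like cells and 10.5-fold above epithelial-like cells. Per cell this came to 159, 51.1, 17.5 and 11.0 Fth1 UMIs in the same order, although neutrophil-like cells were captured at the lowest depth. Of all Fth1 UMIs in the kept cells, 39.0% came from alveolar macrophage-like cells, which were 7.19% of cells. Neutrophil-like cells came next among the 17 classes by this scaling, followed by stromal-like cells at 13594 CPM (13255 to 13939) and non-classical monocyte-like cells at 12633 (12343 to 12928), and none of these neighbors overlapped in counting error. Per cell, the Fth1 median was 8299 CPM in stromal-like and 3909 in non-classical monocyte-like cells. Both medians lay below the 10898 CPM of C1q macrophage-like cells, so the order of summed levels did not hold per cell. At the low end were T-like cells at 1941 CPM, NK-like cells at 1415 and plasma-like cells at 684.

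Ferritin light chain mRNA was also highest in alveolar macrophage-like cells, with a different order below them. Ftl1 (chr7:45457944-45459884) was measured at 9120 CPM (9053 to 9187) in alveolar macrophage-like, 5377 (5322 to 5433) in C1q macrophage-like, 3411 (3333 to 3490) in neutrophil-like and 1461 (1422 to 1500) in epithelial-like cells. The alveolar macrophage-like level was 1.70-fold the C1q macrophage-like level, a smaller gap than for Fth1. Unlike Fth1, Ftl1 was lower in neutrophil-like than in C1q macrophage-like cells, by 1.58-fold. Basophil or mast-like cells ranked at number 4, at 5006 CPM (4749 to 5274), although their Fth1 level of 2572 CPM was near that of epithelial-like cells. T-like cells were lowest, at 776 CPM. Ftl1 has a near-identical copy, Ftl1-ps1 on chromosome 13, with 4857 UMIs against 220469 for Ftl1. Reads that match both are usually dropped, so the Ftl1 level may be too low by an unknown amount.

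**Figure D1:**
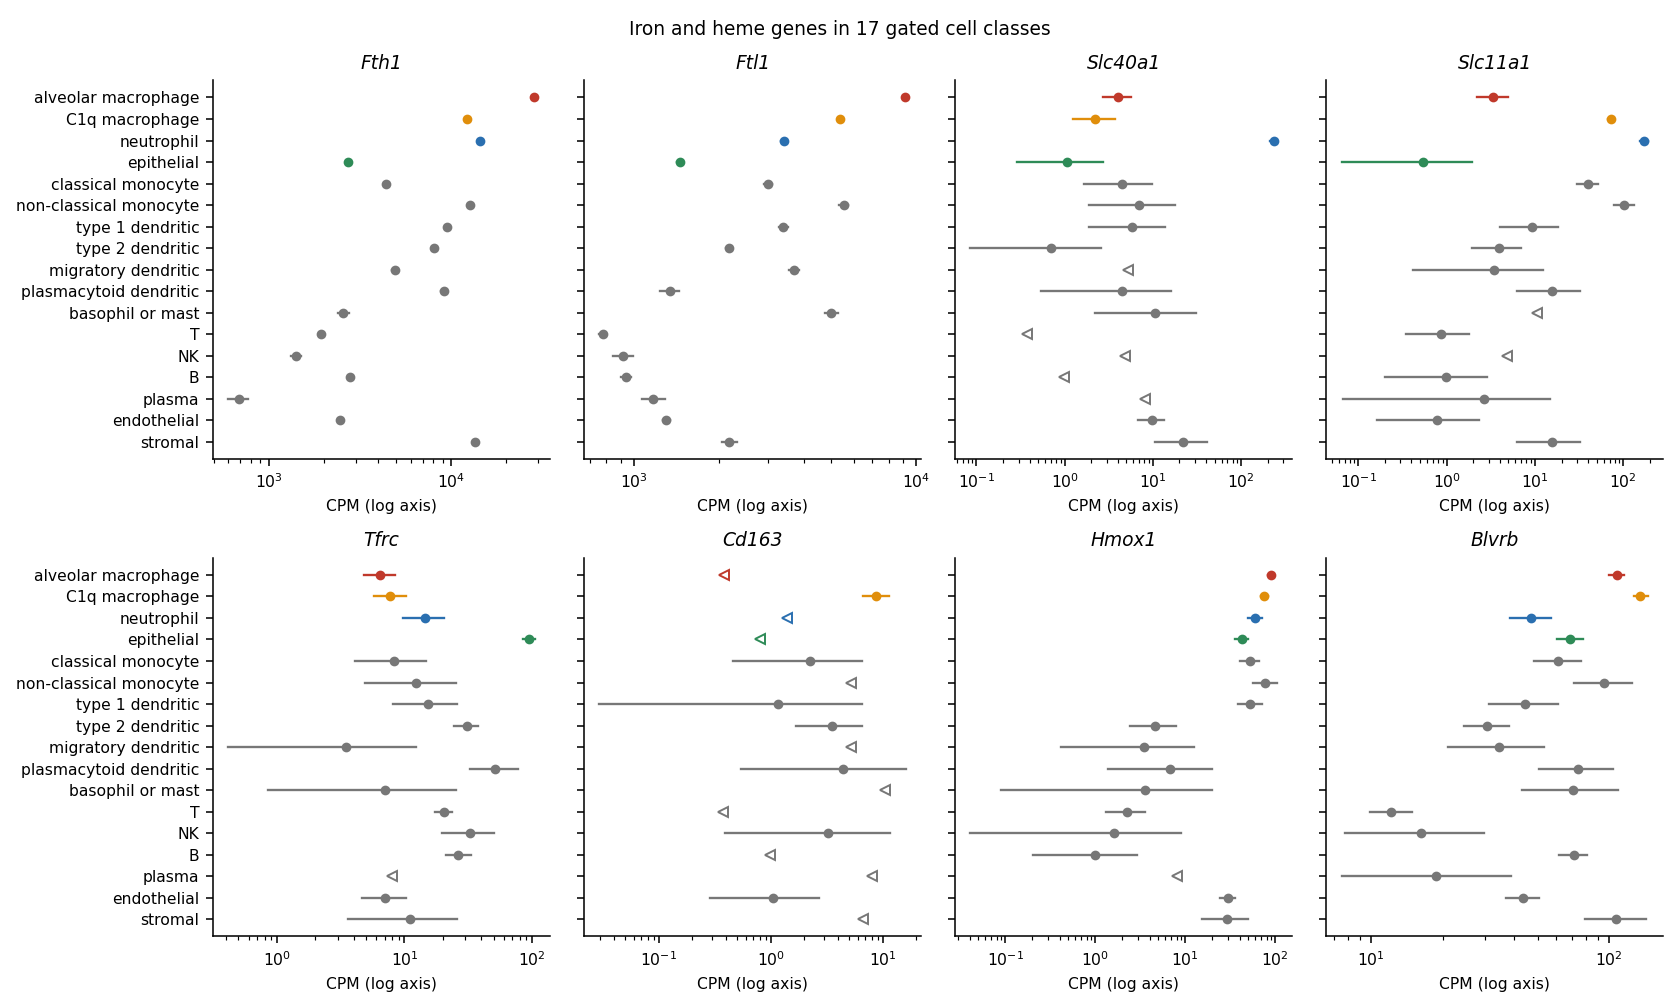
CPM of each gene (log axis) in 17 cell classes. Points are CPM of summed UMIs, bars are exact 95% Poisson intervals, open triangles mark classes with 0 UMIs at the level 3 UMIs would give, and colors mark the 4 main classes. Fth1 and Ftl1 are highest in alveolar macrophage-like cells (28638 and 9120 CPM), Slc40a1 and Slc11a1 in neutrophil-like cells (233 and 172 CPM), and Tfrc in epithelial-like cells (94.4 CPM).

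Both chains together took 3.78% of all UMIs of alveolar macrophage-like cells, 1.77% in neutrophil-like, 1.76% in C1q macrophage-like and 0.418% in epithelial-like cells. Plasma-like cells were lowest, at 0.186%. The proportion of heavy to light chain differed among the classes with much ferritin. Fth1 UMIs per Ftl1 UMI were 4.20 (4.09 to 4.31) in neutrophil-like, 3.14 (3.11 to 3.17) in alveolar macrophage-like, 2.27 (2.24 to 2.30) in C1q macrophage-like and 1.86 in epithelial-like cells. The ratio was highest in plasmacytoid dendritic-like cells at 6.81 and stromal-like cells at 6.23. It was under 1 in basophil or mast-like cells, at 0.514 (0.469 to 0.562), and in plasma-like cells, at 0.582 (0.497 to 0.681). The ratio counts mRNA and can be compared between classes. It is not a molar ratio of the chains, since UMIs do not measure protein and reads shared with Ftl1-ps1 may be missing from Ftl1.

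**Figure D2:**
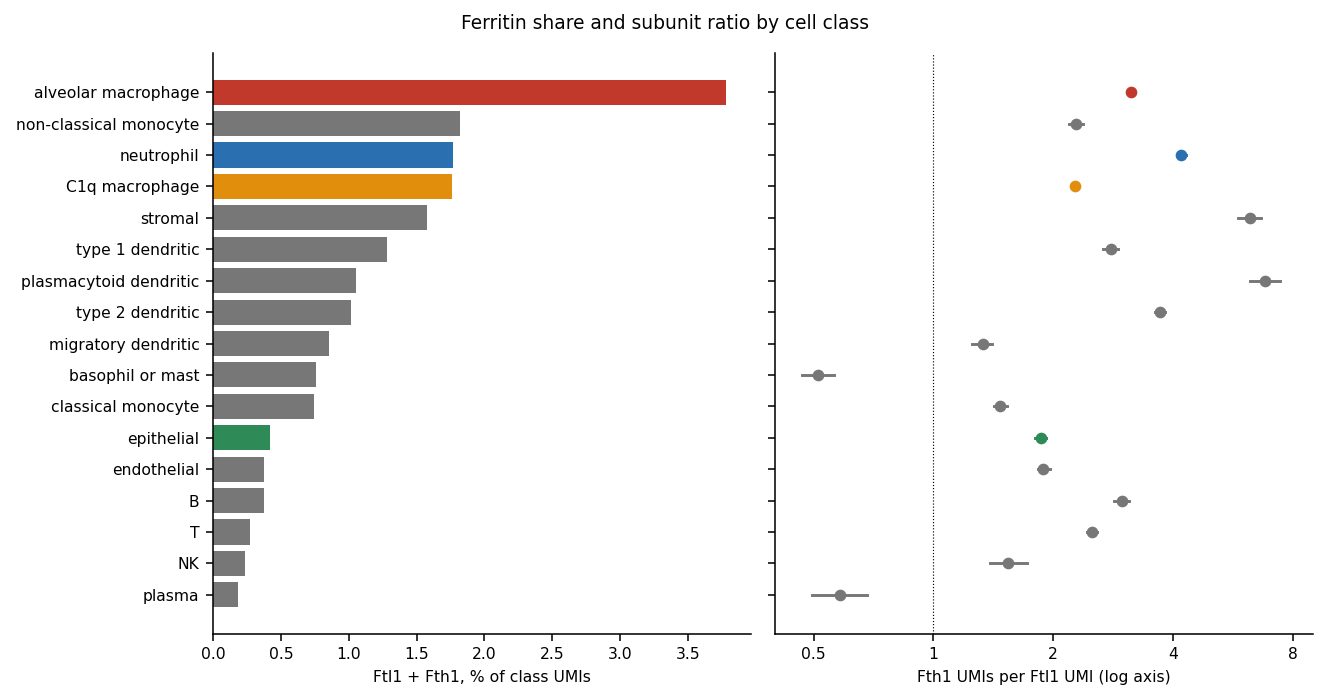
Share of class UMIs from Ftl1 and Fth1 together (left, %) and Fth1 UMIs per Ftl1 UMI with exact 95% intervals (right, log axis) in 17 cell classes. Alveolar macrophage-like cells have the largest ferritin share (3.78%), and the heavy to light ratio ranges from 0.514 in basophil or mast-like cells to 6.81 in plasmacytoid dendritic-like cells.

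Ferritin spread among the cells of a class. In alveolar macrophage-like cells, Fth1 per cell had a median of 25306 CPM, with a 10th percentile of 14109 and a 90th percentile of 46794. In neutrophil-like cells the median was 13423 CPM, and the same percentiles were 3986 and 30166, a wider range at a lower depth. In C1q macrophage-like cells these values were 10898, 5891 and 19321. Thinned to 1000 UMIs per cell, 100% of 1369 alveolar macrophage-like and 98.7% of 711 neutrophil-like cells held an Fth1 UMI, against 87.8% of 880 epithelial-like and 78.1% of 4032 T-like cells.

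The iron exporter Slc40a1 (chr1:45908068-45926523) was concentrated in neutrophil-like cells. Its level was 233 CPM (213 to 254, 499 UMIs) in neutrophil-like cells, 3.99 (2.71 to 5.66, 31 UMIs) in alveolar macrophage-like cells, 2.23 (1.25 to 3.68, 15 UMIs) in C1q macrophage-like cells and 1.07 (0.291 to 2.73, 4 UMIs) in epithelial-like cells. The neutrophil-like level was 58.3-fold that of alveolar macrophage-like cells (log2 ratio 5.87, 5.34 to 6.44) and 104-fold that of C1q macrophage-like cells (log2 ratio 6.70, 5.97 to 7.55). Neutrophil-like cells were 9.02% of kept cells and gave 75.0% of Slc40a1 UMIs. Stromal-like cells at 22.2 CPM (10.7 to 40.9) and endothelial-like cells at 9.72 (6.84 to 13.4) followed, with overlapping intervals. The neutrophil genes S100a8 and S100a9 were read as measures of free neutrophil RNA. S100a8 stood at 73803 CPM in neutrophil-like, 172 in alveolar macrophage-like, 57.3 in C1q macrophage-like and 133 in epithelial-like cells. S100a9 was at a similar level in neutrophil-like (72103 CPM), C1q macrophage-like and epithelial-like cells (137 CPM). In alveolar macrophage-like cells S100a9 was at only 19.2 CPM, so S100a8 and S100a9 gave different measures there. The part of such RNA in the low Slc40a1 levels outside neutrophil-like cells was not tested. No UMI was seen in T-like cells, which at 3 UMIs allows up to 0.373 CPM, nor in B-, NK-, plasma- or migratory dendritic-like cells.

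At the level of cells, 22.0% of neutrophil-like cells had a Slc40a1 UMI, with at most 4 in any cell. Thinned to 1000 UMIs, the share was 18.3% (15.5 to 21.3) of the 711 cells deep enough, against 0.292% of alveolar macrophage-like, 0.189% of C1q macrophage-like and 0.114% of epithelial-like cells. Without thinning, 0 of 4367 T-like cells held one, which allows a share of up to 0.0687%. The thinned and unthinned shares cover different cells, since 711 of 1757 neutrophil-like cells reached that depth. Neutrophil-like cells with a Slc40a1 UMI had a median depth of 995 UMIs, and those without had 876. Of the 17 classes, only neutrophil-like cells had a 90th percentile of per-cell Slc40a1 above 0, at 1196 CPM.

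Slc11a1 (chr1:74375195-74386062), the phagosomal metal transporter, separated the macrophage classes. It stood at 172 CPM (154 to 190, 368 UMIs) in neutrophil-like cells, 72.8 (66.5 to 79.5, 489 UMIs) in C1q macrophage-like cells, 3.35 (2.19 to 4.90, 26 UMIs) in alveolar macrophage-like cells and 0.534 (0.0646 to 1.93, 2 UMIs) in epithelial-like cells. Alveolar macrophage-like cells were 21.8-fold below C1q macrophage-like cells (log2 ratio -4.44, -5.07 to -3.87), the reverse of their order in ferritin. Non-classical monocyte-like cells at 103 CPM (78.7 to 133) overlapped C1q macrophage-like cells in counting error, and classical monocyte-like cells were lower, at 39.8 (29.8 to 52.1). After thinning, 15.6% of neutrophil-like and 7.26% of C1q macrophage-like cells held a Slc11a1 UMI, against 0.219% of alveolar macrophage-like, 0.114% of epithelial-like and 0.0744% of T-like cells. The alveolar macrophage-like share overlapped those of epithelial-like and T-like cells, which should lack the gene, so thinned cells did not separate these classes. In summed UMIs, the alveolar macrophage-like interval (2.19 to 4.90 CPM) lay above that of epithelial-like cells (0.0646 to 1.93). It also lay above that of T-like cells, which were at 0.871 CPM. The part of free RNA in this difference was not tested. Slc11a1 and Slc40a1 shared their highest class but not the rest of their order, since C1q macrophage-like cells held 489 Slc11a1 UMIs and 15 Slc40a1 UMIs.

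**Figure D3:**
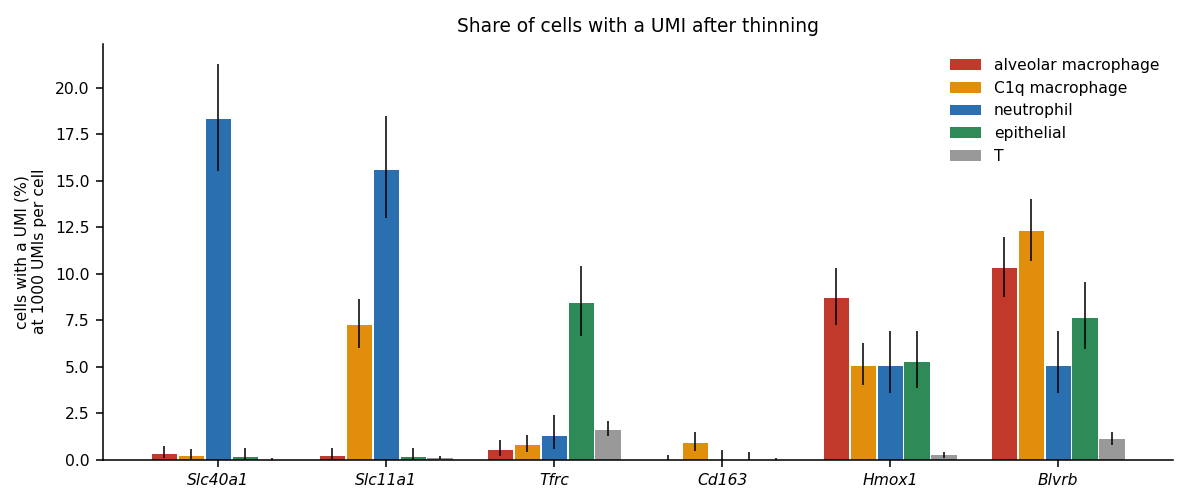
Share of cells with at least 1 UMI of each gene (%) after each cell was thinned to 1000 UMIs and shallower cells were left out. Lines are exact Clopper-Pearson 95% intervals, and T-like cells are shown for comparison. Slc40a1 reaches 18.3% in neutrophil-like cells and at most 0.292% in the other 4 classes, and Tfrc reaches 8.41% in epithelial-like cells.

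Tfrc (chr16:32608920-32632794), the uptake receptor, was highest in epithelial-like cells, which of the 4 main classes were lowest in both ferritin chains. By the gate, the order of Tfrc over these 4 classes was the reverse of that of Ftl1. With clusters, neutrophil-like and C1q macrophage-like cells changed places. Epithelial-like cells stood at 94.4 CPM (84.9 to 105, 354 UMIs), neutrophil-like cells at 14.5 (9.82 to 20.5), C1q macrophage-like cells at 7.74 (5.78 to 10.2) and alveolar macrophage-like cells at 6.43 (4.78 to 8.48). The epithelial-like level was 14.7-fold that of alveolar macrophage-like cells (log2 ratio 3.88, 3.45 to 4.33) and 12.2-fold that of C1q macrophage-like cells (log2 ratio 3.61, 3.19 to 4.06). The macrophage classes did not differ beyond counting error (log2 ratio -0.27, -0.86 to 0.32). Among all classes, plasmacytoid dendritic-like cells followed at 51.4 CPM (32.6 to 77.1), without overlap with epithelial-like cells, and then NK-like cells at 32.4, type 2 dendritic-like cells at 30.7 (24.6 to 37.9), B-like cells at 26.5 (21.1 to 33.0) and T-like cells at 20.3 (17.3 to 23.7). Neighbors from plasmacytoid dendritic-like to T-like cells overlapped. The thinned share of cells with a Tfrc UMI was 8.41% in epithelial-like, 1.61% in T-like, 1.27% in neutrophil-like, 0.758% in C1q macrophage-like and 0.511% in alveolar macrophage-like cells. Over the 17 classes, Tfrc on a log2(CPM + 10) scale had a Pearson r of -0.43 with Ftl1 and -0.01 with Fth1.

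Cd163 (chr6:124304656-124330527), the haptoglobin-hemoglobin receptor, was rare. The deposited cells held 95 UMIs of it in 69 cells. C1q macrophage-like cells had 8.78 CPM (6.69 to 11.3), from 59 UMIs in 40 cells, which was 67.0% of all its UMIs in kept cells. Alveolar macrophage-like, neutrophil-like and epithelial-like cells had 0 UMIs, which at 3 UMIs allows up to 0.386, 1.40 and 0.800 CPM. The C1q macrophage-like level was 22.8-fold the alveolar macrophage-like limit, 6.28-fold the neutrophil-like limit and 11.0-fold the epithelial-like limit. These folds leave out the counting error of the 59 UMIs. Type 2 dendritic-like cells were next by UMIs, at 3.53 CPM (1.69 to 6.50, 10 UMIs), just below the C1q macrophage-like interval, and plasmacytoid dendritic-like cells at 4.47 CPM had only 2 UMIs. Hemoglobin RNA, the mark of red blood cells, was near 0 in the 4 main classes, with 0 to 2 UMIs of Hba-a1 and 0 to 2 of Hbb-bs in each.

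The heme-degrading enzyme Hmox1 (chr8:75093621-75100589) varied less among the 4 classes. It stood at 89.6 CPM (83.0 to 96.5) in alveolar macrophage-like, 75.2 (68.8 to 82.0) in C1q macrophage-like, 59.7 (49.8 to 71.0) in neutrophil-like and 42.4 (36.1 to 49.5) in epithelial-like cells. The largest ratio among these, alveolar macrophage-like over epithelial-like, was 2.11-fold. T-like cells were at 2.24 CPM (1.33 to 3.54) and B-like cells at 0.983 (0.203 to 2.87), without overlap with the 4 classes. The thinned shares of cells with a UMI were 8.69%, 5.05%, 5.06% and 5.23% in the same 4 classes and 0.223% in T-like cells. The order of neutrophil-like and C1q macrophage-like cells rests on the class definition: the log2 ratio was -0.33 (-0.62 to -0.05) by the gate and 0.36 when clusters took its place.

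Blvrb (chr7:27447978-27466144), the reductase of biliverdin and flavins, was highest in C1q macrophage-like cells. Its level there was 135 CPM (127 to 145), with 108 (100 to 115) in alveolar macrophage-like, 68.3 (60.2 to 77.2) in epithelial-like and 47.1 (38.4 to 57.2) in neutrophil-like cells. Stromal-like cells at 107 CPM (78.7 to 142) and non-classical monocyte-like cells at 94.7 (71.1 to 124) overlapped alveolar macrophage-like cells, and T-like cells were last at 12.2 (9.91 to 14.9), within the intervals of NK-like and plasma-like cells. The neutrophil-like level was 2.88-fold below the C1q macrophage-like level (log2 ratio -1.52, -1.84 to -1.23). The macrophage order was not stable, since the log2 ratio of alveolar macrophage-like over C1q macrophage-like cells was -0.33 (-0.47 to -0.20) by the gate and 0.31 with clusters. Hmox1 and Blvrb had a Pearson r of 0.64 over the 17 classes.

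To set these ratios against the rest of the genome, a gene was called when its CPM, after 10 CPM was added to each class, differed at least 2-fold and it reached 20 CPM in either class. Between alveolar macrophage-like and C1q macrophage-like cells, 5 of the 8 genes reached that minimum, and Slc40a1, Tfrc and Cd163 did not. Of these, Fth1 was called higher in alveolar macrophage-like cells, as were 10.1% of 6005 genes, and Slc11a1 lower, as were 7.29%. Ftl1, Hmox1 and Blvrb lay within 2-fold.

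Neutrophil-like cells were set against alveolar macrophage-like cells over 6166 genes, of which 14.7% were called higher and 28.2% lower. Slc40a1 and Slc11a1 were called higher and Ftl1 and Blvrb lower, out of 6 of the 8 genes past the minimum. Fth1 was 2.00-fold lower, at the edge of the call, and was not called. Against C1q macrophage-like cells, 17.7% of 5833 genes were called higher and 23.5% lower, and Slc40a1 and Slc11a1 (2.36-fold) were called higher and Blvrb lower. The Slc11a1 log2 ratio lay between 0.96 and 2.04 over 11 alternative ways of processing. Fth1 was 1.17-fold higher in neutrophil-like than in C1q macrophage-like cells (log2 ratio 0.23, 0.21 to 0.25), but the log2 ratio was -0.05 when mitochondrial and ribosomal protein genes were left out of the totals, so the direction depends on the scaling. The Tfrc log2 ratio between these classes was 0.90 (0.21 to 1.57) by the gate and -0.04 with clusters.

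Epithelial-like cells were lower in both ferritin chains and higher in Tfrc than each of the 3 myeloid classes. Against alveolar macrophage-like cells, 15.3% of 6686 genes were called higher and 20.8% lower. Tfrc was called higher and Fth1 and Ftl1 lower (log2 ratios -3.40 and -2.64), of 5 genes past the minimum. Against C1q macrophage-like cells, where 17.0% of 6405 genes were called higher and 17.5% lower, Tfrc was called higher and Fth1, Ftl1 and Slc11a1 lower, of 6. Against neutrophil-like cells, where 29.5% of 6396 genes were called higher and 23.2% lower, Tfrc was called higher at 6.53-fold and Fth1, Ftl1, Slc40a1 and Slc11a1 lower, of 7.

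**Figure D4:**
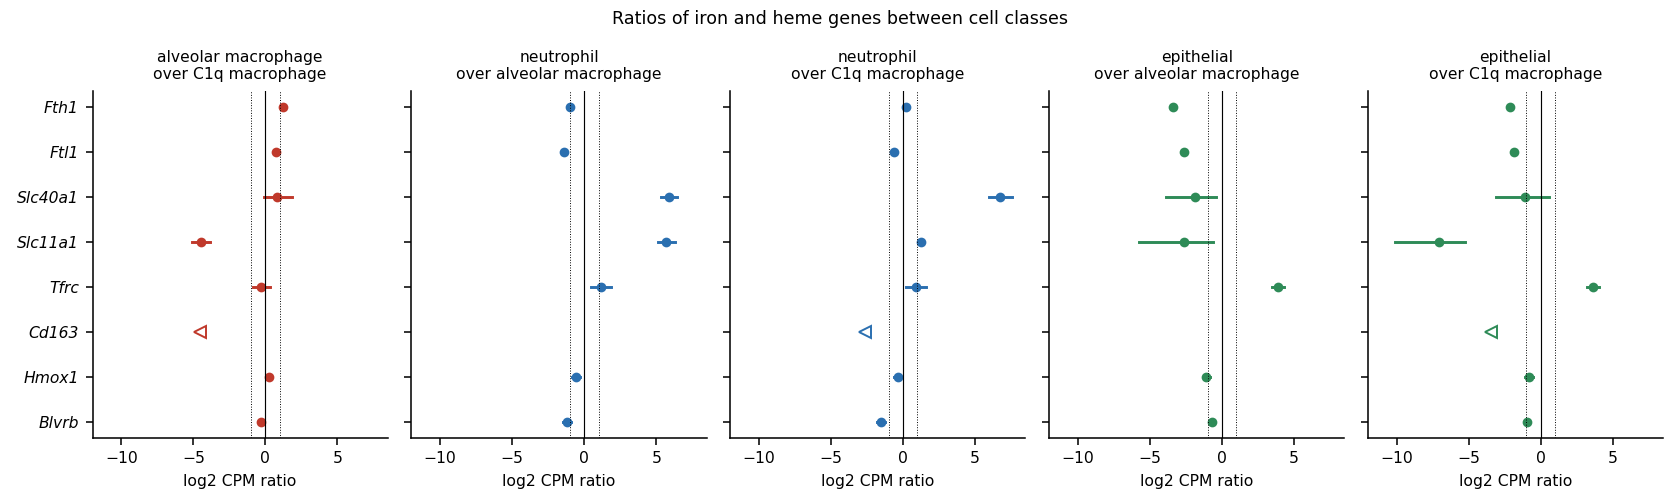
Log2 CPM ratios of each gene for 5 pairs of cell classes. Points are ratios of summed UMIs without a pseudocount, bars are exact conditional 95% intervals, open triangles are bounds for genes with 0 UMIs in a class, dotted lines mark 2-fold, and genes with too few UMIs for a ratio are blank. Slc40a1 stands at 5.87 and 6.70 in neutrophil-like over the macrophage classes, and Tfrc at 3.88 and 3.61 in epithelial-like cells over them.

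The remaining genes of a list of 67 iron and heme genes were counted in the same way, 59 besides the 8. Between alveolar macrophage-like and C1q macrophage-like cells, 10.1% of all genes tested were called higher and 7.29% lower. Of these 59 genes, 34 reached the minimum, 6 were called higher and 3 lower, and the median log2 ratio was 0.55 against 0.21 over all genes tested. Those higher in alveolar macrophage-like cells included Ncoa4, which delivers ferritin to the lysosome (260 against 32.2 CPM), Fbxl5, the iron-sensing ligase subunit that degrades an iron regulatory protein (116 against 29.9), Blvra, the other biliverdin reductase (157 against 50.2), and the heme-related transporter Flvcr2 (63.3 against 0.149, the latter 1 UMI). Aifm2 (41.7 against 4.62) and Nr1h3 (20.1 against 2.83) completed them. Lower were Cp, the ferroxidase ceruloplasmin (0.129 against 51.4), Hfe, which tunes iron sensing (19.2 against 73.8), and Nfe2l2, the antioxidant regulator (263 against 549).

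Against C1q macrophage-like cells, 17.7% of all genes tested were called higher in neutrophil-like cells and 23.5% lower. Of the list, 7 of 32 genes past the minimum were called higher and 7 lower, with a median log2 ratio of 0.26 against -0.17 over all genes. The higher genes were the siderophore binder Lcn2 (2765 against 4.76 CPM), haptoglobin Hp (2040 against 5.06), the metalloreductase Steap4 (332 against 0.744), lactoferrin Ltf (211 against 0.595), the cystine transporter Slc7a11 (704 against 54.2), Fbxl5 (719 against 29.9) and the mitochondrial iron importer Slc25a37 (58.7 against 9.08). Among the 7 lower were transferrin, Trf (58.7 against 201), the hemopexin receptor Lrp1 (35.4 against 169), Cp (0.466 against 51.4) and Hfe (13.5 against 73.8). Lcn2, Ltf and Hp encode proteins that neutrophils store in granules. Against alveolar macrophage-like cells the same 7 genes were called higher, and 13 of the 39 genes past the minimum were lower, including Ncoa4 (53.6 against 260) and Aco1, an iron regulatory protein (2.80 against 46.3). Over all genes tested between these classes, 14.7% were called higher and 28.2% lower.

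Against C1q macrophage-like cells, 17.0% of all genes tested were called higher in epithelial-like cells and 17.5% lower. Of the list, 9 of 34 genes past the minimum were called higher and 7 lower, with a median log2 ratio of 0.10 against -0.01 over all genes. Higher beside Tfrc were Lcn2 (1144 against 4.76 CPM), Hp (572 against 5.06), the glutathione synthesis enzyme Gclc (373 against 18.5), Acsl4, a lipid-activating enzyme of ferroptosis (326 against 42.0), the metal importer Slc39a8 (85.4 against 1.94), the heme synthesis enzymes Alad (75.0 against 10.1) and Cpox (29.6 against 5.21), Gpx4 (899 against 313) and Slc25a37 (39.5 against 9.08). The lower genes included Slc7a11 (1.87 against 54.2), Lrp1 (5.60 against 169), Ncoa4 (6.40 against 32.2) and Bach1, the repressor of Hmox1 (41.3 against 136). Hmox1 itself was 1.77-fold lower in epithelial-like cells (log2 ratio -0.83), with a log2 ratio between -1.0 and -0.12 over 11 alternative ways of processing. Against alveolar macrophage-like cells 7 of 39 list genes were called higher and 10 lower, beside 15.3% and 20.8% of all genes tested. Against neutrophil-like cells 10 of 35 were called higher and 12 lower, beside 29.5% and 23.2% of all genes tested.

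Within C1q macrophage-like cells, heme genes and Tfrc varied with a small subset. Cells with at least 2 UMIs of Folr2, Lyve1 or Cbr2, markers of tissue-resident perivascular macrophages, numbered 62, against 1490 with none. Cd163 stood at 144 CPM (33 UMIs) in the subset and 3.33 CPM (21 UMIs) in the rest, a 43.2-fold difference (log2 ratio 5.43, 4.60 to 6.30). Hmox1 was at 196 against 69.9 CPM (log2 ratio 1.49, 1.01 to 1.94) and Blvrb at 271 against 129 CPM (log2 ratio 1.07, 0.67 to 1.44). Tfrc, with 6 UMIs in the subset and 42 in the rest, was at 26.2 against 6.67 CPM (log2 ratio 1.97, 0.45 to 3.21). Fth1 was lower in the subset, at 7811 against 12407 CPM, and Ftl1 was 1.07-fold higher. Slc40a1 had 4 UMIs in the subset and 9 in the rest (17.5 against 1.43 CPM, log2 ratio 3.61, 1.46 to 5.45), and Slc11a1 did not differ beyond counting error (log2 ratio 0.21, -0.53 to 0.87). Median depths were 3432 and 4054 UMIs. When the subset was called on cells thinned to a common depth, 35 cells remained and the Cd163 log2 ratio was 5.82, while that of Slc40a1, with 1 UMI in the subset, was no longer clear of 0 (2.30, -3.13 to 5.08).

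Most alveolar macrophage-like cells had a UMI of the Cre reporter. TdTomato stood at 2677 CPM in this class, 5606 CPM in epithelial-like cells, 223 in neutrophil-like and 131 in C1q macrophage-like cells, and the study itself removed tdTomato-positive cells outside the epithelium. Of the 1401 cells, 1326 had a TdTomato UMI and 75 had none. Fth1 was at 28486 CPM with and 31890 CPM without the reporter, and Ftl1 at 9071 and 10172, so ferritin was no lower in the 75 cells without it. The intervals of the ratio spanned 0 on the log2 scale for Hmox1 (-0.09, -0.60 to 0.46), Blvrb (0.14, -0.35 to 0.68), Tfrc, Slc40a1 and Slc11a1.

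Cycling cells, with UMIs of at least 2 cell-cycle genes, were set against cells with none, and the differences varied by class. In alveolar macrophage-like cells, 102 cycling cells had Fth1 at 18341 CPM against 30149 CPM in 1090 others (log2 ratio -0.72, -0.75 to -0.69) at similar depths of 5608 and 5512 UMIs. Blvrb was lower in them, at 69.6 against 115 CPM, and Hmox1 higher, at 125 against 85.7 CPM (log2 ratio 0.55, 0.17 to 0.91). In C1q macrophage-like cells, Hmox1 went the other way, at 29.8 CPM in 51 cycling cells (9 UMIs) against 82.7 CPM in 1404 others (log2 ratio -1.47, -2.61 to -0.53), at median depths of 5916 and 3935 UMIs. Tfrc was 2.12-fold higher in 128 cycling T-like cells, at 38.9 against 18.3 CPM (log2 ratio 1.08, 0.42 to 1.70), where cycling cells were also deeper, at 4920.5 against 1594 UMIs per cell. The Tfrc interval included 0 in alveolar macrophage-like (0.83, -0.71 to 2.10), C1q macrophage-like (-0.22, -3.31 to 1.72) and type 2 dendritic-like cells (0.82, -0.21 to 1.73). Fth1 was slightly lower in cycling C1q macrophage-like (log2 ratio -0.20) and type 2 dendritic-like cells (-0.21). In cycling T-like cells Fth1 was slightly higher (0.13, 0.05 to 0.21). The part of depth in these differences was not tested.

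Neutrophil-like cells were split by the granule genes Ltf and Ngp, which mark younger neutrophils, a split chosen after the values were seen. The 170 cells with a UMI of either had Slc40a1 at 158 CPM against 246 CPM in the 1587 others (log2 ratio -0.64, -1.09 to -0.22), Slc11a1 at 118 against 181 CPM (-0.62, -1.15 to -0.14) and Fth1 at 10700 against 14966 CPM. Median depths were 1336.5 and 868 UMIs, and the part of depth was not tested. Both groups held Slc40a1 far above the macrophage classes.

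Epithelial-like cells were split by whether type II (ATII) or type I (ATI) alveolar markers scored at least 1.3 times higher, with 661 and 190 cells and 72 in neither. Tfrc was at 98.8 CPM in the ATII group and 70.0 CPM in the ATI group, with an interval that included 0 on the log2 scale (0.50, -0.02 to 1.06). Fth1 was at 2794 against 2136 CPM (log2 ratio 0.39, 0.29 to 0.48) and Ftl1 at 1414 against 1601 CPM (-0.18, -0.29 to -0.07). Median depths were 4373 and 2270 UMIs, and the part of depth was not tested.

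**Figure D5:**
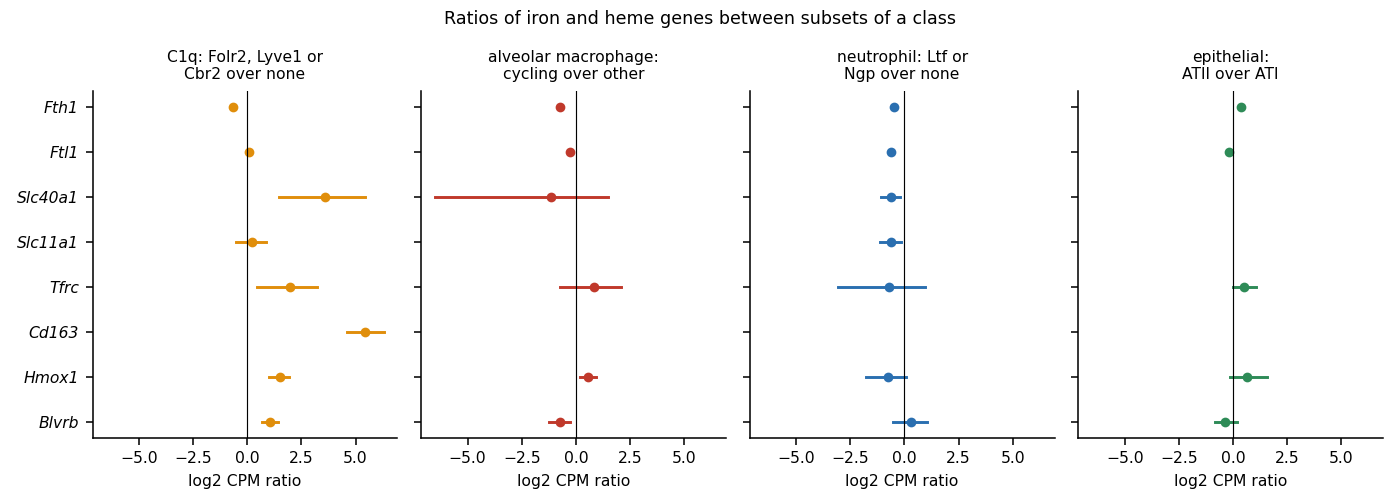
Log2 CPM ratios of each gene between subsets of 4 classes, with exact conditional 95% intervals. Genes with too few UMIs for a ratio are blank. Cd163 stands at 5.43 in the C1q macrophage-like subset with Folr2, Lyve1 or Cbr2, and Fth1 at -0.72 in cycling alveolar macrophage-like cells.

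The genes whose levels over the 17 classes most resembled those of each gene were found among 6364 genes, by Pearson r of log2(CPM + 10). These values are descriptive, since the classes share libraries and free RNA. Ftl1 was most like its copy Ftl1-ps1 (0.93), Gabarap (0.89) and Snx10 (0.87), and Fth1 like Ccni (0.90), Tnfaip2 (0.90) and Hexa (0.88). Slc40a1 was most like Steap4, Gm5483 and Ngp, each at 0.94. Slc11a1 was most like Pla2g7 (0.92), Cd300ld (0.91) and Pilrb2 (0.90), and Hmox1 like Mgst1 (0.91), Plin2 (0.90) and Lyz2 (0.89). Tfrc was most like Acaca (0.82), Las1l (0.82) and Fasn (0.80), of which Acaca and Fasn encode enzymes of fatty acid synthesis. Blvrb had no gene above 0.77 (Tpp1), and Cd163 none above 0.79 (Pdcd2l). Among the 8 genes themselves, the highest r was 0.71, between Ftl1 and Fth1, and the lowest was -0.43, between Ftl1 and Tfrc.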

How the data were processed

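Microdissected tumors of 4 mice were profiled by 10x 3′ single-cell RNA-seq. A further allele that all these mice shared is not reported here. The authors aligned reads to mm10 with Cell Ranger 3.0.2 and deposited 1 matrix of UMI counts by gene and cell, not normalized. Cells carried only a number, with no barcodes and no column of another sample. Reads that map to more than 1 gene, such as those shared by Ftl1 and Ftl1-ps1, are usually dropped by that counter.

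Cells with at least 200 genes and below the 98th percentile of genes (2713) and of mitochondrial share (13.4%) were kept. A cell joined the class with the highest mean scaled marker score if that score was at least 0.15 and 1.3 times the next, with at least 2 markers detected. These thresholds were set after a first look at the data, and the names may differ from those of the study. Within 20% above a cut lay 254 alveolar macrophage-like and 201 C1q macrophage-like cells. Doublets were kept, and as an alternative the 210 (1.03%) that Scrublet marked among 20299 cells were dropped (scanpy 1.11.5, with 6% expected).

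CPM came from summed UMIs with exact Poisson intervals, ratios from exact conditional intervals and shares from Clopper-Pearson intervals. A count of 0 was given the limit of 3 UMIs. No p-value was computed, because the pooled matrix counts as 1 sample. Ratio intervals were checked on simulated Poisson counts, which hold no spread between cells or mice, so the check covers counting error only. Clusters, an alternative to the gate, were built in Seurat 5.3.0 (R 4.3.3) at resolution 0.1 on 25 dimensions, without the iron and heme genes.

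The members, the gene lists and the comparisons were chosen with earlier results of these data known. Named genes are the 8 members, list genes past 2-fold and the 3 most alike genes of each member. The plan for list genes was up to 6 per direction by size. Some were named outside that order after their values were seen, with larger ratios left out, and some counts were named in full.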

Additional observations from a re-analysis of the deposited data

How the results depend on the processing

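No paired analysis was possible because the matrix holds no map from cells to mice, and leaving out each mouse was not run for the same reason. Over 908 recomputed values, 723 stayed within the counting interval or within 1.5 times the count, 181 moved and 4 changed sign. The 4 were Hmox1 (0.36) and Tfrc (-0.04) in neutrophil-like over C1q macrophage-like cells and Blvrb in alveolar macrophage-like over C1q macrophage-like cells (0.31), all with clusters, and Fth1 in neutrophil-like over C1q macrophage-like cells (-0.05) without mitochondrial and ribosomal genes in the total.

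The Fth1 log2 ratio of alveolar macrophage-like over C1q macrophage-like cells, with its narrow counting interval, was 1.22 without upper cut-offs, 1.13 with the stricter and 1.25 with the looser gate, 1.41 with clusters, 1.14 without mitochondrial and ribosomal genes, 1.26 without ferritin in the total and 1.38 after the T-like level was subtracted. The Slc11a1 ratio of the same classes was -5.87 with the stricter gate and -3.52 with clusters, and the Tfrc ratio of epithelial-like over C1q macrophage-like cells was 2.82 with clusters. After subtraction of the T-like level, the Tfrc ratio could not be computed because the macrophage level was at 0, and list genes called higher numbered 10 in alveolar macrophage-like and 11 in neutrophil-like cells over C1q macrophage-like cells. The Fth1 log2 ratio of epithelial-like over alveolar macrophage-like cells lay between -5.1 and -3.35 over 11 alternatives. The epithelial-like Fth1 level was as low as 776 CPM among them. The share of neutrophil-like cells with a Slc40a1 UMI was 11.0% at 500 UMIs, 24.0% at 2000 and 22.0% unthinned. The Slc40a1 ratio of neutrophil-like over alveolar macrophage-like cells stayed within its interval in all 11 alternatives. The causes of these shifts were not tested. Depth limits Cd163, Slc40a1 outside neutrophil-like cells and Slc11a1 in alveolar macrophage-like cells, which rest on under 60 UMIs each.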
